A study of Arabidopsis thaliana with 36 samples.

Results

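Expansins are a superfamily of plant cell wall proteins. The family was taken as 35 listed loci of Arabidopsis thaliana, comprising 26 alpha-expansins (EXPA1 to EXPA26), 5 beta-expansins (EXPB1 to EXPB5), 3 expansin-like A genes (EXLA1 to EXLA3) and the single expansin-like B gene EXLB1. The count table held 34 of these loci among its 28775 genes, and EXPA19 was not analysed here.

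Alpha-expansins loosen the primary wall at acid pH, without cutting its polymers, by weakening the contacts between cellulose and the hemicelluloses that coat it. Plasma membrane proton pumps supply the acid pH, and xyloglucan endotransglucosylase/hydrolases (XTHs) cut and rejoin the hemicellulose xyloglucan in the same wall. Beta-expansins are best known from grasses, while no wall-loosening activity has been established for the expansin-like proteins. In roots, expansins are known for cell elongation, root hair growth and the passage of lateral roots through outer tissues.

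The RNA-seq data were used to ask how expansin transcripts responded to salt and whether gibberellin (GA) signalling through the DELLA repressors affected that response. Roots of 5-day-old seedlings were sampled on NaCl (140 mM) and on mock medium, in the della quintuple mutant (della5x) and in Landsberg erecta (Ler, wild-type) after 8 h and after 1 h, and in gai and ga4 after 8 h. The della5x line carries mutations in all DELLA genes, namely rgl3-4, rgl2-1, rgl1-1, rga-t2 and gai-t6. The gai line produces a DELLA protein that GA does not destabilise, and ga4 lacks a late enzyme of GA synthesis. Each of the 12 groups had 3 libraries from separate pools of seedlings, cut from the lowest part of the root, so P values measure the spread between such pools. In a pooled root tip, fewer cells of a type and less RNA per cell cannot be told apart.

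Levels are given in CPM, the counts of a gene scaled to the normalised size of its library, and are listed in replicate order. The total count was 16772984 to 23811804 per library (median 18884857). Transcripts of RGA were at 27.4 to 53.5 CPM in the 12 della5x libraries, against 73.2 to 120.3 CPM in the 24 others, and RGL1 was at 0 to 0.307 CPM, against 4.03 to 8.55 CPM. GAI was at 2.85 to 11.5 CPM in della5x, against 12.6 to 23.8 CPM, and RGL2 at 2.92 to 12.3 CPM, against 9.86 to 19.3 CPM. RGL3 went the other way, at 152 to 440.1 CPM in della5x, against 2.65 to 10.1 CPM, so its transcript level does not show the rgl3-4 lesion. All 8 root markers were detected in every library. Their sum moved with salt at 8 h, at 228 to 229 CPM in della5x, 206 to 237 in gai, 225 to 255 in ga4 and 209 to 235 in Ler on salt, against 311 to 345, 354 to 389, 321 to 377 and 329 to 365 CPM under mock conditions. Of the 8 markers, 5, 5, 3 and 4 were called lower and 1 was called higher in each. Of all genes, 9.03%, 8.35%, 9.01% and 10.4% were called lower and 13.7%, 10.6%, 10.7% and 12.9% higher in these responses. The part of the markers in the expansin values was not tested. Libraries of a group were not interchangeable: the main shared deviation from the group means put the third library of each of the 8 groups of 8 h on one side, together with 1 of the other 16 libraries, and the second della5x salt library of 1 h lay farthest out. Results of 8 h were therefore also computed without the third libraries.

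Of the 34 loci, 23 had enough counts to be tested in a salt response (23 at 1 h and 22 at 8 h). EXPA21 to EXPA26, which lie next to each other on chromosome 5, and EXPB4 and EXPB5 had no count in any of the 36 libraries. For EXPB4 and EXPB5 this allows up to 0.00436 CPM, the level of 3 counts over all libraries. Within the EXPA21 to EXPA26 cluster, coding sequences shared identical runs of up to 219 bases, longer than the 150-base reads, and EXPA21 overlaps an opposite-strand gene over 964 bases. Reads that fit more than 1 gene may have been left out of the counts, so the zeros there do not bound the levels. EXPA2 and EXPA5 did not exceed 5 counts in a library and EXPB2 did not exceed 18. Among the tested members the longest identical run between coding sequences was 57 bases (EXLA1 and EXLA3). EXPA20 lies over 1061 bases of the opposite-strand non-coding gene AT4G38215, and since the strand setting of the counting is not given, EXPA20 values are uncertain. The overlaps of EXPA7 (23 bases), EXPA18 (46 bases) and EXLA1 (22 bases) with opposite-strand genes are short.

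The 300 bases upstream of the annotated gene start are shown for the pair of alpha-expansins with the largest 8 h responses and for EXLA3 and EXLA2, which have different motifs. EXPA10 (AT1G26770) and EXPA1 (AT1G69530) were 79.7% identical over their aligned coding bases. Their windows, read 5′ to 3′ from TAIR10.1, are chr1:9259132-9259431 on the plus strand and chr1:26141426-26141725 on the plus strand, with capitals for runs of at least 8 shared bases at the same spacing.
EXPA10: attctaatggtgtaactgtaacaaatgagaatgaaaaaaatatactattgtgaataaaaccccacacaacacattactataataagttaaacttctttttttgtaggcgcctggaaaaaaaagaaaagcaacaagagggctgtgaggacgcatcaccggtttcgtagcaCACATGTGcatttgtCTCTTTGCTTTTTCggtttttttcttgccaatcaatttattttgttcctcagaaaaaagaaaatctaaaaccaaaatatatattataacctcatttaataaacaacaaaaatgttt
EXPA1: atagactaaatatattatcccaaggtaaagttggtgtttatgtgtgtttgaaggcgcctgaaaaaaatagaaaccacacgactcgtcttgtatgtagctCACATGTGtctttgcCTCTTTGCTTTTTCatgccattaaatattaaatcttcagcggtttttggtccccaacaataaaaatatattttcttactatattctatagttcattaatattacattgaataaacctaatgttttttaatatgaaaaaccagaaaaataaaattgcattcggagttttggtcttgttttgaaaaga
The 14-base run begins 116 bases before the start of EXPA10 and 186 bases before that of EXPA1. The runs are shown because these windows share them. By the longest run shared between their windows, the pair ranked 7 (tied) of 561 pairs of members, and every pair with a longer run lay within the EXPA21 to EXPA26 cluster. Neither window held the ABA-response core ACGTG or the dehydration-response core CCGAC on either strand, which occurred in 25.6% and 13.9% of all 27443 windows and in 10 and 6 of the 34 members.

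In the next windows, chr3:16892402-16892701 on the plus strand and chr4:17979741-17980040 on the minus strand, capitals mark the cores CCGAC and ACGTG or their reverse complements.
EXLA3: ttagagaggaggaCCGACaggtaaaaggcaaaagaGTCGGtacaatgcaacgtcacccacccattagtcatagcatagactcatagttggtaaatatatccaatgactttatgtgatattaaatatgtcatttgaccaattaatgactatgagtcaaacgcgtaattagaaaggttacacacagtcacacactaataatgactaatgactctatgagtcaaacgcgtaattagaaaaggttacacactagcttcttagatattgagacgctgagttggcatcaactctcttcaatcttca
EXLA2: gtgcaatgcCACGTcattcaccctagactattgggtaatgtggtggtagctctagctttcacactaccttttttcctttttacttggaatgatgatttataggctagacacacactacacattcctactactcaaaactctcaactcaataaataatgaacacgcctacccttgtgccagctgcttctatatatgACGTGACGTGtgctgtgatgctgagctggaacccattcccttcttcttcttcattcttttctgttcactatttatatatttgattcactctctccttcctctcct
The window of EXLA3 (AT3G45960) held 2 CCGAC cores and that of EXLA2 (AT4G38400) held 3 ACGTG cores. A match describes letters and is not evidence of a bound site.

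The summed expansin level was higher on salt than under mock conditions in every genotype, a description with no test. The sum over all members was 1270.5, 1155 and 1329 CPM in della5x on salt for 8 h, against 604, 637 and 697 CPM under mock conditions. In Ler it was 1210.0, 1212 and 1397 CPM on salt, against 524, 558 and 493 CPM under mock conditions. The gai and ga4 libraries were at 1287 to 1386 and 1230.1 to 1438 CPM on salt, against 601 to 614 and 561 to 652 CPM under mock conditions. After 1 h the sum was 1324, 1484 and 1219.5 CPM in della5x on salt, against 770.1, 797 and 725 CPM under mock conditions, and 1175, 1289 and 1187 CPM in Ler on salt, against 752, 618 and 591 CPM. No salt group overlapped its mock group.

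Compared per kilobase of exon, the members with the highest means in Ler under mock conditions at 8 h were EXPA17 (71.95 ± 18.05 CPM per kb, SD, n = 3), EXPA9 (48.5 ± 7.37), EXPA18 (46.9 ± 4.66), EXPA15 (41.9 ± 3.47) and EXPA7 (36.1 ± 2.41). Neighbours in this order differed by less than the sum of their SDs. On salt the order was headed by EXLB1 at 176 ± 60.9 CPM per kb and EXPA17 at 167 ± 40.1, whose spreads overlapped, ahead of EXPA1 at 107 ± 13.9 and EXPA9 at 106 ± 6.15. EXPA1, EXPA10 and EXLB1 held places 15, 21 and 8 among the members under mock conditions and 3, 9 and 1 on salt.

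**Figure D1:**
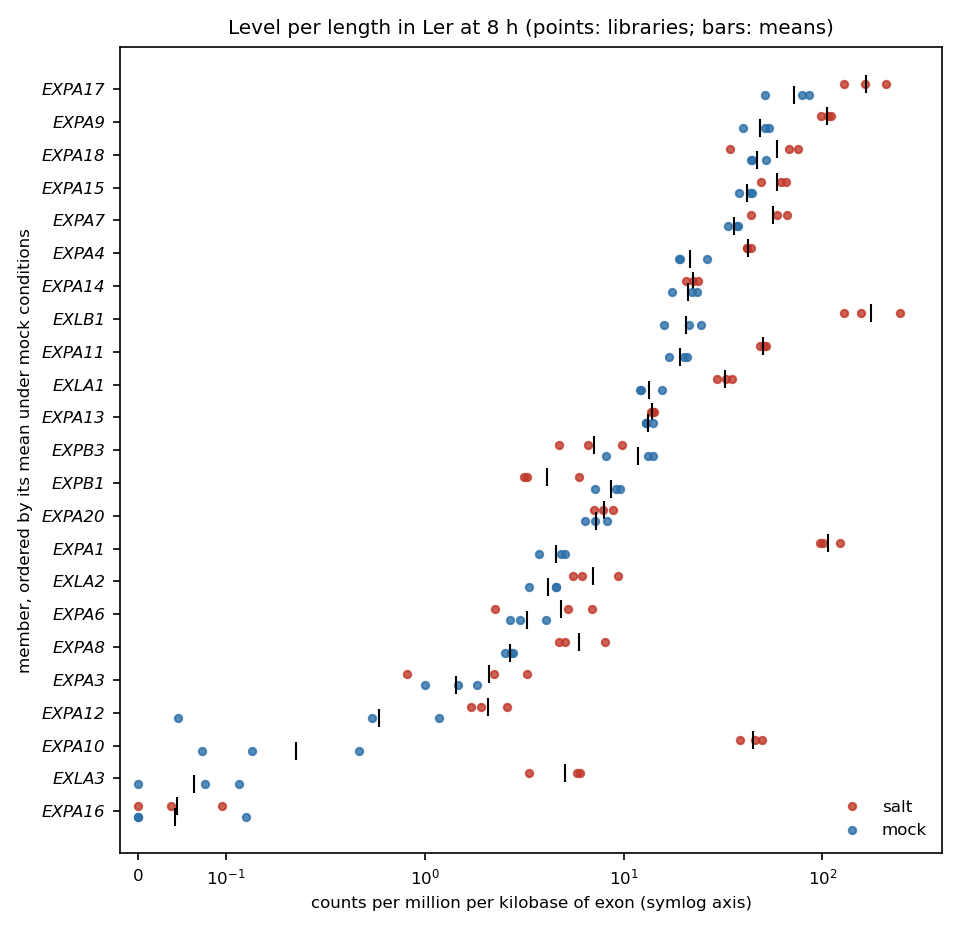
Level of the 23 tested members in Ler at 8 h, in CPM per kilobase of exon on a symmetric log axis. Points are the 3 libraries on salt (red) and the 3 under mock conditions (blue), and bars are means. EXPA1, EXPA10, EXLA3 and EXLB1 stand far to the right of their mock values on salt, whereas EXPA13 and EXPA14 overlap theirs.

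Most expansins called on salt were higher than under mock conditions. A member was called when its adjusted P (edgeR quasi-likelihood test, Benjamini-Hochberg) was under 0.05 and its log2 fold change lay outside -0.5 to 0.5. At 8 h, 8 of 22 members were called in della5x (8 higher), 13 in gai (12 higher, 1 lower), 13 in ga4 (11 higher, 2 lower) and 10 in Ler (9 higher, 1 lower), where 22.8%, 19%, 19.7% and 23.3% of all genes tested were called. Of all genes, 13.7%, 10.6%, 10.7% and 12.9% were called higher and 9.03%, 8.35%, 9.01% and 10.4% lower in these responses. At 1 h, 11 of 23 were called in della5x (10 higher, 1 lower) and 13 in Ler (11 higher, 2 lower), against 10.1% and 13.9% of all genes (6.62% and 8.54% higher, 3.52% and 5.37% lower). The median log2 fold change of the members was 0.61, 1.06, 0.90 and 0.86 at 8 h in della5x, gai, ga4 and Ler, and 0.63 and 0.71 at 1 h in della5x and Ler. The median of all genes was -0.00, 0.00, -0.01 and -0.01 at 8 h, and -0.00 and -0.01 at 1 h. With the third libraries of 8 h left out, 14 members were called in della5x, 14 in gai, 13 in ga4 and 14 in Ler. When only the groups compared were fitted, 3 were called in della5x at 1 h (EXPA1, EXPA10 and EXPA15). The shares of all genes called in these other fits are not given here, so these counts cannot be read as particular to the members.

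Of these, 7 genes were higher in all 6 responses, EXPA1, EXPA9, EXPA10, EXPA11, EXPA17, EXLA1 and EXLA3, and EXLB1 joined them in all 4 genotypes at 8 h. With only the compared groups fitted, EXPA9, EXPA11, EXPA17, EXLA1 and EXLA3 lost the della5x call of 1 h (adjusted P = 0.14, 0.0623, 0.051, 0.115 and 0.0882), and EXLA1 lost that of ga4 (adjusted P = 0.0807). In total 20 of the 23 members were called at least once, 17 of them only higher and 3 only lower, and EXPA6, EXPA7 and EXPA18 were not called. The matching shares of all genes, called at least once or in every response, were not computed, so these counts have no background. When single libraries were left out, the 1 h calls were the less stable ones, with 4 to 10 members called in della5x and 8 to 12 in Ler. The lowest counts came without the first della5x mock library and without the third Ler mock library.

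**Figure D2:**
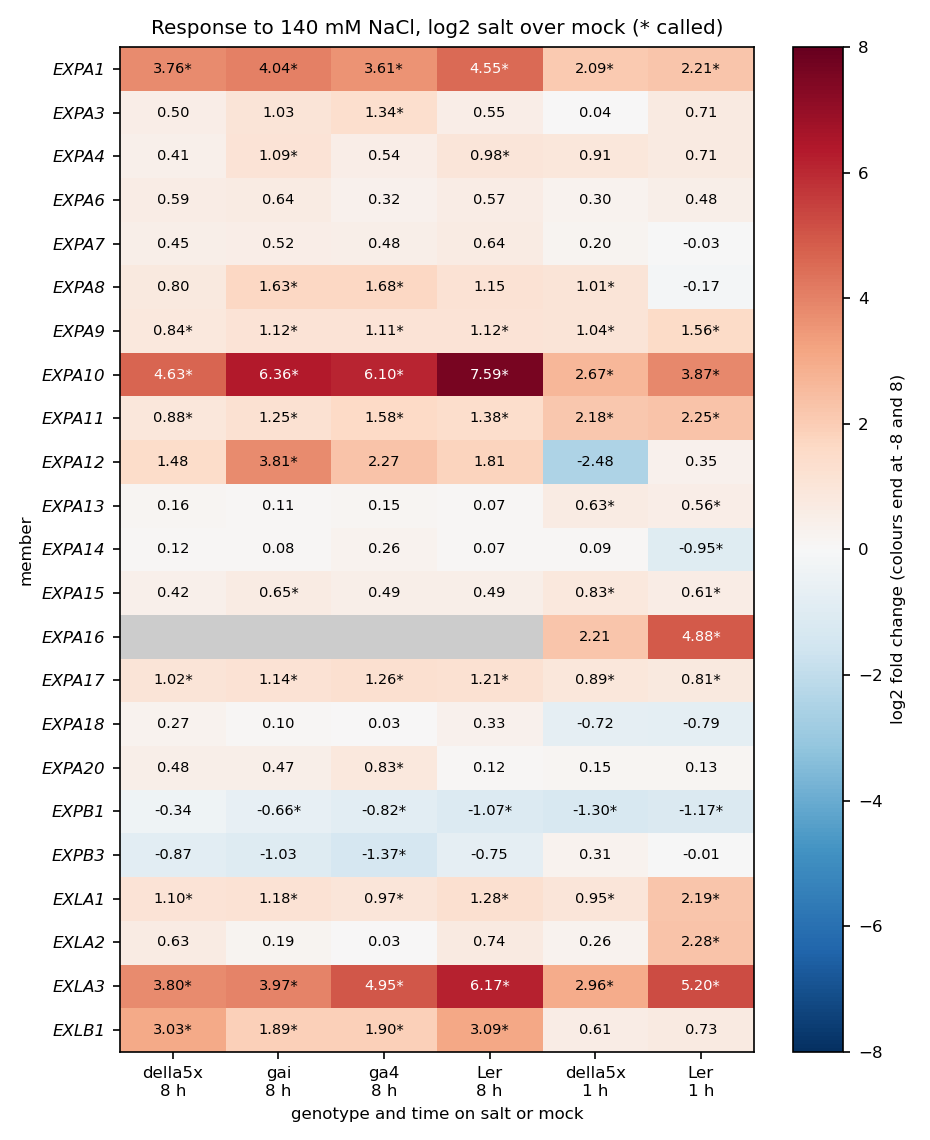
Log2 fold change of each tested member on salt over mock conditions (rows), by genotype and time (columns), with colours from blue (lower on salt) to red (higher). Asterisks mark calls and grey marks EXPA16, which was not tested at 8 h. The rows of EXPA1, EXPA9, EXPA10, EXPA11, EXPA17, EXLA1 and EXLA3 carry an asterisk in every column.

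EXPA10, a leaf and pedicel expansin in earlier work, was nearly silent in unsalted roots and was induced most of all alpha-expansins in every 8 h response. It had 12.4, 11.02 and 10.1 CPM in della5x on salt for 8 h, against 0.219, 0.787 and 0.282 CPM under mock conditions (log2 fold change 4.63 ± 0.43, adjusted P = 2.97e-08). It had 72.3, 78.4 and 60.8 CPM in Ler on salt, against 0.73, 0.211 and 0.114 CPM under mock conditions (log2 fold change 7.59 ± 0.43, adjusted P = 1.62e-11). All salt libraries were above all mock libraries, but the della5x salt libraries were far below those of Ler. In gai it had 106, 94.6 and 48.5 CPM on salt, against 1.24, 0.906 and 0.854 CPM under mock conditions (log2 fold change 6.36 ± 0.38, adjusted P = 7.51e-11). In ga4 it had 117, 93.9 and 65.1 CPM, against 1.896, 1.05 and 1.01 CPM (log2 fold change 6.10 ± 0.37, adjusted P = 8.5e-11). The third library was the lowest of each salt group, and without the third libraries the log2 fold changes were 6.52 and 6.15. The part of that deviation in the values was not tested.

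At 1 h the EXPA10 response was already present at low level. It had 2.37, 2.23 and 2.52 CPM in della5x on salt, against 0.533, 0.164 and 0.397 CPM under mock conditions (log2 fold change 2.67 ± 0.72, adjusted P = 0.0353), and the call held in 1 of the 6 fits that each left out 1 library (adjusted P 0.0434 to 0.12). In Ler it had 2.92, 14.3 and 3.94 CPM, against 0.675, 0.654 and 0.103 CPM (log2 fold change 3.87 ± 0.73, adjusted P = 0.00398). The second Ler salt library was well above the other two, and without it the log2 fold change was 2.85 (adjusted P = 0.0157).

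EXPA1, known from lateral root founder cells, rose in every response and most at 8 h. It had 198, 159 and 181 CPM in della5x on salt for 8 h, against 9.59, 12.4 and 17.5 CPM under mock conditions (log2 fold change 3.76 ± 0.26, adjusted P = 3.63e-10). It had 191, 183 and 157 CPM in gai, against 9.31, 9.91 and 12.6 CPM (log2 fold change 4.04 ± 0.26, adjusted P = 2.76e-10), and 220.0, 206 and 206 CPM in ga4, against 11.1, 12.6 and 27.7 CPM (log2 fold change 3.61 ± 0.25, adjusted P = 7.48e-10). In Ler it had 152, 156 and 191 CPM, against 5.79, 7.496 and 7.84 CPM (log2 fold change 4.55 ± 0.27, adjusted P = 3.16e-11). All salt libraries of 8 h lay far above the mock libraries. After 1 h it had 92.5, 218 and 81.3 CPM in della5x on salt, against 21.9, 30.03 and 40.4 CPM under mock conditions (log2 fold change 2.09 ± 0.47, adjusted P = 0.0148). The della5x call was lost without the first or the second mock library (adjusted P = 0.072 and 0.0606). In Ler it had 62.2, 97.7 and 71.5 CPM, against 29.1, 12.7 and 8.36 CPM (log2 fold change 2.21 ± 0.48, adjusted P = 0.00905), with all 3 salt libraries above all mock libraries.

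**Figure D3:**
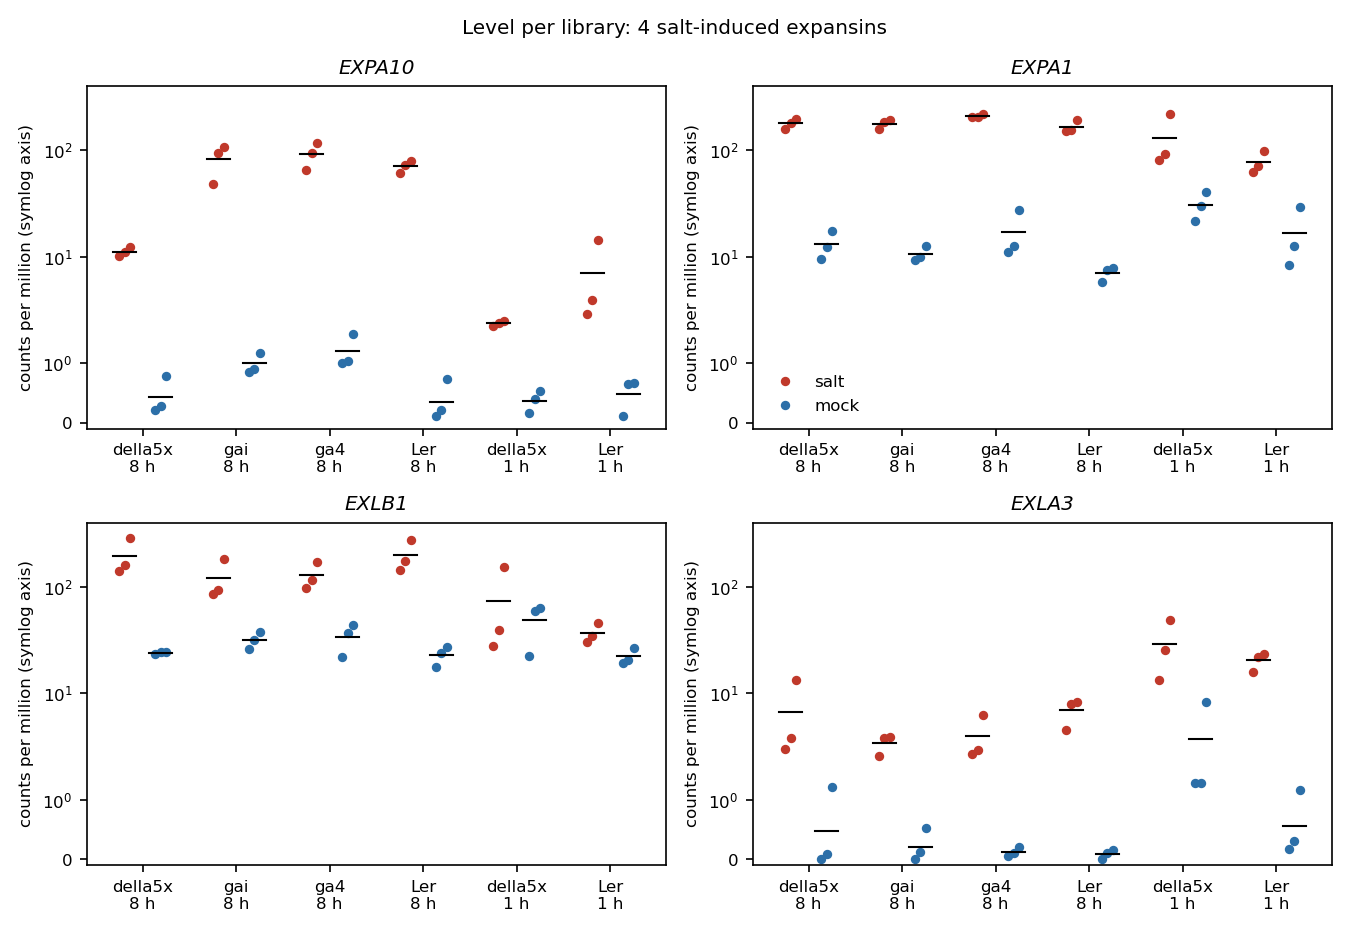
CPM per library of EXPA10, EXPA1, EXLB1 and EXLA3 on a symmetric log axis, by genotype and time, on salt (red, left of each pair) and under mock conditions (blue, right). Points are libraries and lines are group means. The 3 della5x salt libraries of EXPA10 at 8 h lie between 10.1 and 12.4 CPM, while the lowest salt library of the other genotypes is at 48.5 CPM.

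EXPA9 and EXPA17 were abundant before salt and rose moderately, while EXPA11 had lower mock levels and rose more than them at 1 h. EXPA9 had 142, 120.1 and 119.6 CPM in della5x on salt for 8 h, against 79.6, 69.3 and 63.7 CPM under mock conditions (log2 fold change 0.84 ± 0.13, adjusted P = 3.29e-05). It had 135, 145 and 151 CPM in Ler, against 70.3, 73.2 and 54.6 CPM (log2 fold change 1.12 ± 0.13, adjusted P = 7.25e-07). In gai it had 189.6, 180.3 and 196 CPM, against 98.1, 76.2 and 82.8 CPM (log2 fold change 1.12 ± 0.13, adjusted P = 9.47e-07), and in ga4 163, 156 and 197 CPM, against 87.6, 85.2 and 63.5 CPM (log2 fold change 1.11 ± 0.13, adjusted P = 1.09e-06). The salt libraries of 8 h were above the mock libraries in every genotype. After 1 h it had 187, 80.9 and 208 CPM in della5x on salt, against 88.3, 80.1 and 62.8 CPM under mock conditions (log2 fold change 1.04 ± 0.27, adjusted P = 0.0282). The second della5x salt library was at the mock level, and the call held in 1 of the 6 fits without 1 library, the one without that library (1.35, adjusted P = 9.56e-05). In Ler at 1 h EXPA9 had 218, 229 and 233 CPM, against 78.4, 73.2 and 78.3 CPM (log2 fold change 1.56 ± 0.27, adjusted P = 0.00252), with no overlap.

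EXPA17, which acts in lateral root formation, had 162, 156 and 190.3 CPM in della5x on salt for 8 h, against 97.4, 81.8 and 72.1 CPM under mock conditions (log2 fold change 1.02 ± 0.17, adjusted P = 0.000109). It had 141, 179 and 229 CPM in Ler, against 86.9, 93.5 and 56.4 CPM (log2 fold change 1.21 ± 0.18, adjusted P = 1.26e-05). In gai it had 203, 208 and 209.9 CPM, against 112, 92.2 and 74.5 CPM (log2 fold change 1.14 ± 0.17, adjusted P = 3.31e-05), and in ga4 191, 181 and 223 CPM, against 82.9, 82.7 and 80.7 CPM (log2 fold change 1.26 ± 0.18, adjusted P = 1.04e-05). The third salt library was the highest of each genotype at 8 h. After 1 h it had 227, 145 and 246 CPM in della5x, against 106, 117 and 111 CPM (log2 fold change 0.89 ± 0.17, adjusted P = 0.00647). These groups did not overlap, and neither did those of Ler at 1 h, 196, 250.2 and 210.2 CPM on salt against 115, 123 and 135 CPM under mock conditions (log2 fold change 0.81 ± 0.17, adjusted P = 0.00801). Its calls held in every fit that left out 1 library, but the della5x call of 1 h was lost with only the compared groups fitted (adjusted P = 0.051).

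EXPA11 had larger log2 fold changes at 1 h than EXPA9 and EXPA17. It had 99.1, 21.9 and 98.4 CPM in della5x on salt, against 18.1, 15.7 and 14.7 CPM under mock conditions (log2 fold change 2.18 ± 0.43, adjusted P = 0.00705), and 114, 123 and 155 CPM in Ler, against 23.7, 28.5 and 29.7 CPM (log2 fold change 2.25 ± 0.42, adjusted P = 0.00401). The second della5x salt library was again the low one. At 8 h it had 46.2, 44.1 and 41.2 CPM in della5x on salt, against 26.9, 21.1 and 23.6 CPM (log2 fold change 0.88 ± 0.14, adjusted P = 6.11e-05), and 65.5, 67.9 and 69.8 CPM in Ler, against 27.02, 27.9 and 22.7 CPM (log2 fold change 1.38 ± 0.14, adjusted P = 1.24e-07). In gai it had 104, 102 and 84.7 CPM, against 43.4, 38.01 and 39.5 CPM (log2 fold change 1.25 ± 0.14, adjusted P = 6.75e-07), and in ga4 94.02, 82.3 and 66.1 CPM, against 30.8, 29.1 and 20.5 CPM (log2 fold change 1.58 ± 0.14, adjusted P = 2.92e-08).

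EXPA15 and EXPA4 are abundant alpha-expansins that were called in some responses only. EXPA15 had 82.8, 71.7 and 75.4 CPM in gai on salt for 8 h, against 39.3, 49.3 and 56.5 CPM under mock conditions (log2 fold change 0.65 ± 0.18, adjusted P = 0.00847). It had 140.0, 135 and 154 CPM in della5x, against 94.8, 99.9 and 125 CPM (log2 fold change 0.42 ± 0.17, adjusted P = 0.0689), and 93.6, 70.7 and 89.05 CPM in Ler, against 62.1, 63.8 and 54.4 CPM (log2 fold change 0.49 ± 0.18, adjusted P = 0.0398). The della5x value missed both thresholds, and that of Ler missed the fold threshold. In ga4 it had 77.3, 80.4 and 95.995 CPM, against 45.9, 49.2 and 83.6 CPM (log2 fold change 0.49 ± 0.18, adjusted P = 0.0417), also short of the fold threshold. With the third libraries of 8 h left out it was called in della5x (0.50) and ga4 (0.74) too. After 1 h EXPA15 had 167, 203 and 135 CPM in della5x on salt, against 102, 102 and 80.5 CPM (log2 fold change 0.83 ± 0.16, adjusted P = 0.00706), and 105, 92.6 and 86.7 CPM in Ler, against 70.98, 59.8 and 54.3 CPM (log2 fold change 0.61 ± 0.16, adjusted P = 0.0244). The Ler call at 1 h held in 2 of the 6 fits without 1 library (adjusted P 0.0232 to 0.0888).

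EXPA4 rose at 8 h in gai and Ler. It had 70.8, 58.7 and 95.4 CPM in gai on salt, against 31.4, 38.01 and 35.3 CPM under mock conditions (log2 fold change 1.09 ± 0.24, adjusted P = 0.00133), and 62.3, 62.9 and 65.4 CPM in Ler, against 28.5, 28.9 and 39.2 CPM (log2 fold change 0.98 ± 0.24, adjusted P = 0.0028). It had 76.6, 81.6 and 87.7 CPM in della5x, against 47.4, 68.6 and 69.1 CPM (log2 fold change 0.41 ± 0.23, adjusted P = 0.192), and 65.3, 70.8 and 128 CPM in ga4, against 49.9, 46.2 and 83.7 CPM (log2 fold change 0.54 ± 0.23, adjusted P = 0.0927). The ga4 groups overlapped through the third mock library, without which the value was 0.86 (adjusted P = 0.0089). At 1 h it had 125, 294 and 93.1 CPM in della5x on salt, against 78.3, 107 and 87.5 CPM (log2 fold change 0.91 ± 0.39, adjusted P = 0.163), and 101, 78.7 and 58.3 CPM in Ler, against 63.4, 50.3 and 31.3 CPM (log2 fold change 0.71 ± 0.39, adjusted P = 0.25). The second della5x salt library was far above the other two, and both pairs of groups overlapped.

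EXPA8, EXPA12, EXPA3 and EXPA20 were scarce members that were called in some genotypes only, and their differences between genotypes did not pass the test given further on. EXPA8 had 5.87, 8.52 and 16.5 CPM in gai on salt for 8 h, against 4.34, 3.51 and 2.01 CPM under mock conditions (log2 fold change 1.63 ± 0.48, adjusted P = 0.0149), and 13.2, 10.9 and 25.5 CPM in ga4, against 3.79, 5.52 and 6.04 CPM (log2 fold change 1.68 ± 0.47, adjusted P = 0.0101). In every genotype the third salt library was the highest at 8 h, and without the third libraries EXPA8 was called in all 4, with log2 fold changes of 0.80 in della5x, 0.86 in gai, 1.37 in ga4 and 0.89 in Ler. With them it had 4.16, 5.95 and 14.6 CPM in della5x, against 2.96, 2.89 and 8.36 CPM (log2 fold change 0.80 ± 0.47, adjusted P = 0.213), and 6.74, 6.29 and 10.6 CPM in Ler, against 3.34, 3.695 and 3.61 CPM (log2 fold change 1.15 ± 0.48, adjusted P = 0.0736). After 1 h EXPA8 had 9.48, 11.4 and 7.33 CPM in della5x on salt, against 4.599, 4.99 and 4.41 CPM (log2 fold change 1.01 ± 0.25, adjusted P = 0.0216), without overlap, a call that held in 1 of the 6 fits without 1 library (adjusted P 0.0166 to 0.0752). In Ler it had 5.502, 6.42 and 4.58 CPM, against 7.98, 6.16 and 4.33 CPM (log2 fold change -0.17 ± 0.25, adjusted P = 0.707).

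EXPA12 was called in gai, with 2.53, 1.93 and 5.47 CPM on salt for 8 h, against 0.31, 0.113 and 0.251 CPM under mock conditions (log2 fold change 3.81 ± 0.93, adjusted P = 0.00384). EXPA3 was called in ga4, with 2.92, 4.51 and 6.47 CPM, against 0.848, 2.31 and 2.28 CPM (log2 fold change 1.34 ± 0.45, adjusted P = 0.0287), and the call held in 3 of the 6 fits without 1 library (adjusted P 0.019 to 0.146). EXPA20 was called in ga4 as well, with 12.3, 12.9 and 14.5 CPM, against 7.44, 7.83 and 6.89 CPM (log2 fold change 0.83 ± 0.18, adjusted P = 0.00118). None of these 3 pairs of groups overlapped. In Ler the 8 h values were 1.81 ± 0.83 for EXPA12, 0.55 ± 0.44 for EXPA3 and 0.12 ± 0.18 for EXPA20, and none passed. With the third libraries left out EXPA12 was also called in della5x (2.91, adjusted P = 0.00254) and Ler (2.61, adjusted P = 0.00872), in Ler also without the third mock library (2.78). In ga4 EXPA12 just missed the threshold (adjusted P = 0.0509). It was called there by DESeq2 (2.30, adjusted P = 0.0218) and without the low-count filter (2.28, adjusted P = 0.049). EXPA3 lost the ga4 call without the third libraries (adjusted P = 0.0684), and was called in gai with only the compared groups fitted (1.03, adjusted P = 0.0264). EXPA20 in della5x had an adjusted P of 0.0434 and missed the fold threshold. It was called there without the second mock library (0.657) or the first salt library (0.656). At 1 h EXPA12 had 0.0539, 0.546 and 0.516 CPM in della5x on salt, against 0.387, 4.05 and 1.896 CPM (log2 fold change -2.48 ± 1.07, adjusted P = 0.167), and these groups overlapped.

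EXPA13, EXPA14 and EXPA16 were called at 1 h only, and EXPA16 was not tested at 8 h. EXPA13 had 25.8, 29.4 and 28.3 CPM in della5x on salt, against 21.7, 17.5 and 14.8 CPM under mock conditions (log2 fold change 0.63 ± 0.14, adjusted P = 0.0119), and 23.2, 24.9 and 24.96 CPM in Ler, against 16.3, 17.2 and 15.8 CPM (log2 fold change 0.56 ± 0.14, adjusted P = 0.0163). These were small differences without overlap, and at 8 h the log2 fold changes lay between 0.07 and 0.16. EXPA14 was lower in Ler, with 22.3, 13.6 and 13.4 CPM on salt, against 36.9, 26.3 and 31.8 CPM under mock conditions (log2 fold change -0.95 ± 0.29, adjusted P = 0.0459), and had 33.6, 36.9998 and 17.8 CPM in della5x, against 33.7, 27.999 and 21.6 CPM (log2 fold change 0.09 ± 0.29, adjusted P = 0.888). The Ler call held in 1 of the 6 fits without 1 library (adjusted P 0.0251 to 0.165). EXPA16 had 2.21, 2.89 and 0.426 CPM in Ler on salt, against 0.123, 0 and 0.0516 CPM under mock conditions (adjusted P = 0.0144). With 116 counts in the salt group against 3 in the mock group, the ratio was 33.8 (95% counting interval 11.3 to 166). The call was lost without the second or the third mock library (adjusted P = 0.0583 and 0.0542). The Ler mock libraries were under the minimum count of 10, so EXPA16 was tested only through libraries where it was higher. Its P value cannot be read apart from that selection. The call was kept in the 3 other settings that gave a value, where other members called there had 4. In della5x EXPA16 had 4.15, 2.93 and 2.12 CPM, against 1.45, 0.438 and 0.0882 CPM (log2 fold change 2.21 ± 0.86, adjusted P = 0.125).

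The root hair expansins EXPA7 and EXPA18 were not called in any response, and neither was the scarce EXPA6. EXPA7 had 66.1, 74.5 and 48.9 CPM in Ler on salt for 8 h, against 37.2, 41.7 and 42.1 CPM under mock conditions (log2 fold change 0.64 ± 0.26, adjusted P = 0.066), and EXPA18 had 84.8, 94.9 and 42.7 CPM, against 55.04, 55.5 and 65.4 CPM (log2 fold change 0.33 ± 0.36, adjusted P = 0.525). The third salt library was the lowest for both genes in all 4 genotypes. Without the third libraries EXPA7 was called higher in della5x, gai, ga4 and Ler (0.79, 0.78, 0.67 and 0.83) and EXPA18 in della5x and Ler (0.71 and 0.70). With only the compared groups fitted EXPA7 was called higher in Ler at 8 h (0.645, adjusted P = 0.00487) and EXPA18 lower at 1 h (-0.782, adjusted P = 0.0434). DESeq2 called EXPA7 higher in Ler at 8 h as well (adjusted P = 0.0348). After 1 h EXPA18 had 44.6, 48.7 and 43.2 CPM in Ler on salt, against 112, 64.9 and 58.5 CPM (log2 fold change -0.79 ± 0.42, adjusted P = 0.233), and EXPA7 had 36.7, 49.8 and 44.9 CPM, against 48.8, 43.5 and 41.5 CPM (log2 fold change -0.03 ± 0.40, adjusted P = 0.968).

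Other root hair genes were set beside them. The 9 root hair markers summed to 391 to 705 CPM in Ler on salt, against 390.4 to 447 CPM under mock conditions at 8 h, and to 255 to 289 CPM, against 406 to 844 CPM at 1 h. At 1 h 3 of the 9 fell in Ler, where 5.37% of all genes did, PRP1 (-2.86 ± 0.77), PRP3 (-2.26 ± 0.53) and LRX1 (-1.97 ± 0.47), all wall proteins of root hairs. At 8 h PRP1 (3.34 ± 0.50) and RSL4 (0.82 ± 0.27) rose in Ler, where 12.9% of all genes did. All 9 were above 0 in every library. Their part in the EXPA7 and EXPA18 values was not tested.

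Both tested beta-expansins, EXPB1 and EXPB3, fell where they were called. EXPB1 had 9.26, 7.36 and 4.87 CPM in gai on salt for 8 h, against 13.1, 10.99 and 9.59 CPM under mock conditions (log2 fold change -0.66 ± 0.24, adjusted P = 0.0468), and 6.79, 5.57 and 5.32 CPM in ga4, against 9.23, 10.03 and 11.7 CPM (log2 fold change -0.82 ± 0.24, adjusted P = 0.0155). It had 9.08, 4.97 and 4.799 CPM in Ler, against 14.03, 14.6 and 10.9 CPM (log2 fold change -1.07 ± 0.24, adjusted P = 0.00155), and 10.6, 12.97 and 9.97 CPM in della5x, against 12.4, 12.8 and 17.2 CPM (log2 fold change -0.34 ± 0.24, adjusted P = 0.299). The della5x groups overlapped and those of the other genotypes did not. After 1 h it had 3.61, 3.57 and 4.53 CPM in della5x, against 15.01, 7.84 and 6.04 CPM (log2 fold change -1.30 ± 0.31, adjusted P = 0.0204), and 4.63, 4.47 and 4.42 CPM in Ler, against 8.77, 8.55 and 12.8 CPM (log2 fold change -1.17 ± 0.31, adjusted P = 0.025). Left out one at a time, the calls held in 2 of the 6 fits for gai, 4 of the 6 for ga4, 4 of the 6 for della5x at 1 h and 2 of the 6 for Ler at 1 h. Without the third libraries of 8 h, gai (-0.55) and ga4 (-0.64) lost the call.

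EXPB3 had 11.8, 15.6 and 25.8 CPM in ga4 on salt for 8 h, against 40.6, 24.03 and 71.6 CPM under mock conditions (log2 fold change -1.37 ± 0.37, adjusted P = 0.00867). The values were -0.87 ± 0.37 in della5x, -1.03 ± 0.38 in gai and -0.75 ± 0.38 in Ler (adjusted P = 0.0768, 0.0505 and 0.142). The ga4 groups overlapped slightly, and the call held in 4 of the 6 fits without 1 library. With only the compared groups fitted EXPB3 was also called in della5x, gai and Ler (adjusted P = 0.0239, 0.026 and, just under the threshold, 0.04995), and without the third libraries in della5x (-0.83) and gai (-1.29). At 1 h the log2 fold changes were 0.31 in della5x and -0.01 in Ler, and neither passed.

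**Figure D4:**
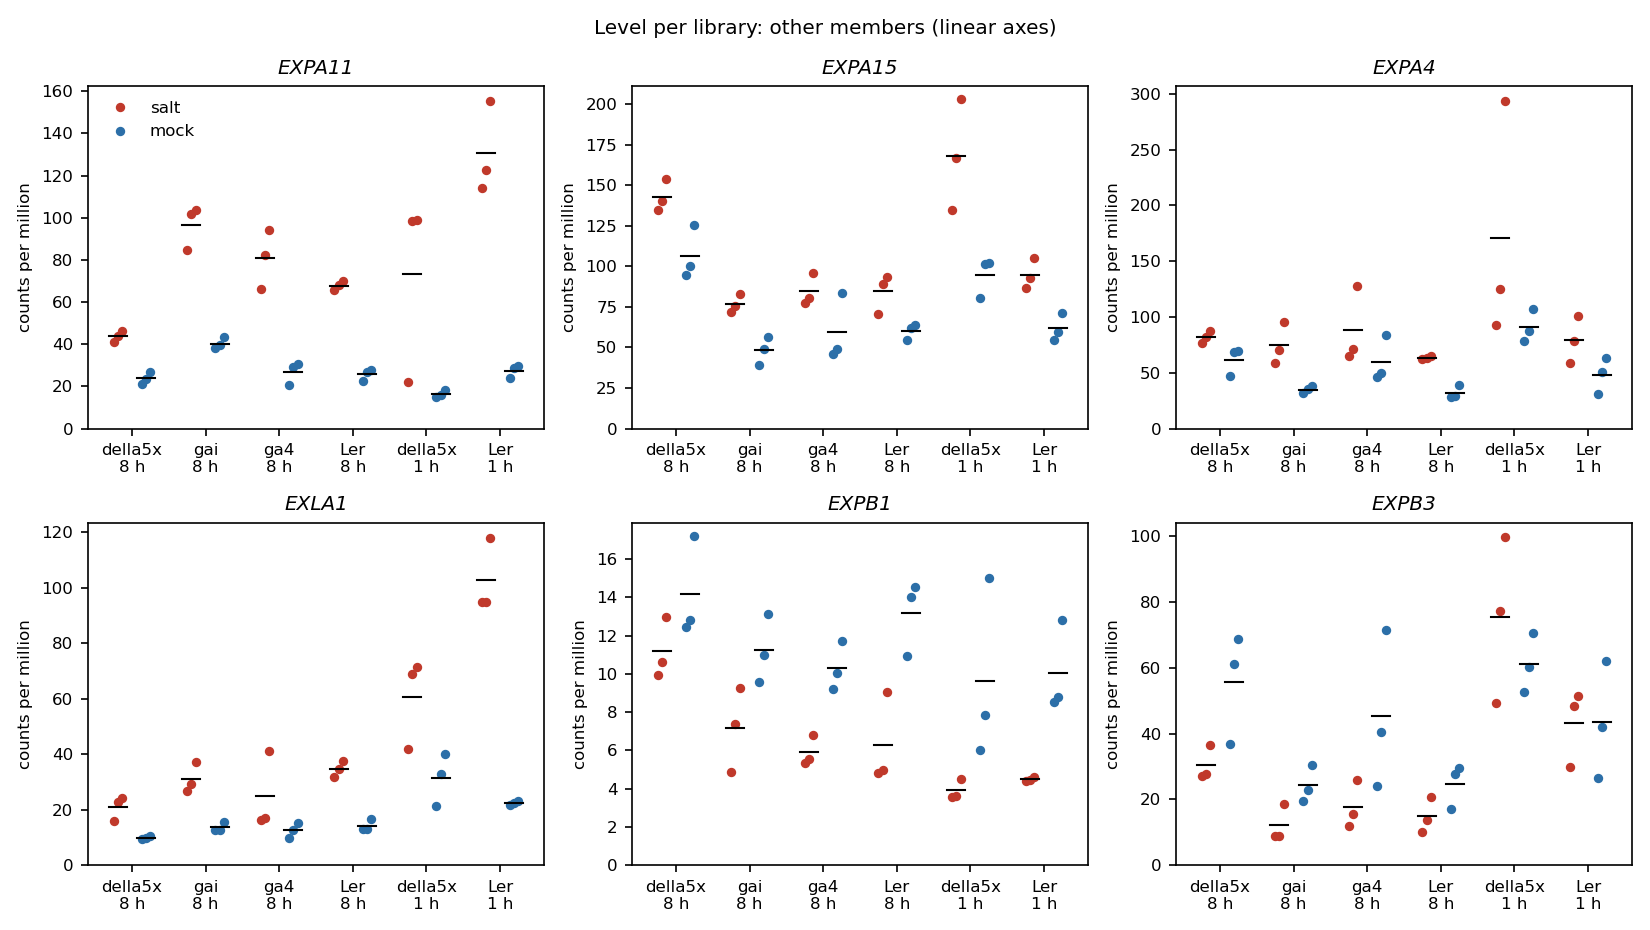
CPM per library of EXPA11, EXPA15, EXPA4, EXLA1, EXPB1 and EXPB3 on linear axes from 0, by genotype and time, on salt (red, left of each pair) and under mock conditions (blue, right). Points are libraries and lines are group means. EXLA1 and EXPA11 are highest on salt at 1 h in Ler, and the salt libraries of EXPB1 lie below the mock libraries in every pair but della5x at 8 h.

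The expansin-like A genes EXLA1 and EXLA3, neighbours on chromosome 3, rose in all 6 responses. EXLA3 had 3.801, 3.02 and 13.2 CPM in della5x on salt for 8 h, against 0, 0.0874 and 1.32 CPM under mock conditions (log2 fold change 3.80 ± 0.84, adjusted P = 0.00143), and 7.96, 4.55 and 8.27 CPM in Ler, against 0.104, 0.158 and 0 CPM (log2 fold change 6.17 ± 1.06, adjusted P = 9.08e-05). The mock counts were few, and the della5x value was 6.93 without the third mock library and 2.83 without the third salt library. In gai it had 3.91, 2.59 and 3.85 CPM, against 0.517, 0.113 and 0 CPM (log2 fold change 3.97 ± 0.94, adjusted P = 0.00287), and in ga4 2.92, 2.704 and 6.199 CPM, against 0.0998, 0.0502 and 0.212 CPM (log2 fold change 4.95 ± 1.01, adjusted P = 0.000797). At 1 h it was more abundant, with 25.4, 48.8 and 13.2 CPM in della5x, against 1.45, 1.42 and 8.29 CPM (log2 fold change 2.96 ± 0.71, adjusted P = 0.0206), and 23.4, 21.8 and 15.97 CPM in Ler, against 1.23, 0.163 and 0.309 CPM (log2 fold change 5.20 ± 0.87, adjusted P = 0.00199). All salt libraries exceeded all mock libraries of their own genotype and time. The della5x call of 1 h was lost without the first or the second mock library (adjusted P = 0.079 and 0.0774).

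EXLA1 had 24.2, 15.8 and 22.9 CPM in della5x on salt for 8 h, against 10.4, 9.400 and 9.63 CPM under mock conditions (log2 fold change 1.096 ± 0.26, adjusted P = 0.00243), and 34.8, 31.6 and 37.4 CPM in Ler, against 13.04, 12.9 and 16.7 CPM (log2 fold change 1.28 ± 0.25, adjusted P = 0.000456). It had 29.3, 26.6 and 37.1 CPM in gai, against 12.5, 15.5 and 12.6 CPM (log2 fold change 1.18 ± 0.25, adjusted P = 0.00128), and 16.97, 16.3 and 41.1 CPM in ga4, against 12.7, 15.2 and 9.75 CPM (log2 fold change 0.97 ± 0.26, adjusted P = 0.00676). The ga4 value rested on the third salt library and was 0.41 without it (adjusted P = 0.142). After 1 h EXLA1 had 71.5, 41.7 and 68.9 CPM in della5x, against 21.1, 32.8 and 39.99 CPM (log2 fold change 0.95 ± 0.23, adjusted P = 0.0226), and 94.999, 94.8 and 118 CPM in Ler, against 23.1, 21.6 and 22.4 CPM (log2 fold change 2.19 ± 0.24, adjusted P = 0.000134). The della5x call at 1 h held in 2 of the 6 fits without 1 library (adjusted P 0.00386 to 0.0754).

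EXLA2 was called in Ler at 1 h, with 6.92, 14.4 and 15.3 CPM on salt, against 2.21, 2.34 and 2.89 CPM under mock conditions (log2 fold change 2.28 ± 0.48, adjusted P = 0.00767). In della5x it had 5.87, 8.38 and 9.22 CPM, against 4.41, 3.07 and 12.1 CPM (log2 fold change 0.26 ± 0.45, adjusted P = 0.77), and these groups overlapped. At 8 h its log2 fold changes were 0.63 in della5x, 0.19 in gai, 0.03 in ga4 and 0.74 in Ler, and none passed.

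EXLB1, the only expansin-like B gene, rose at 8 h in every genotype and was not called at 1 h, except in Ler with only the compared groups fitted (adjusted P = 0.0251). It had 159, 140.1 and 287 CPM in della5x on salt for 8 h, against 23.2, 24.3 and 24.2 CPM under mock conditions (log2 fold change 3.03 ± 0.33, adjusted P = 3.31e-07), and 174, 143 and 274 CPM in Ler, against 23.8, 27.5 and 17.7 CPM (log2 fold change 3.09 ± 0.33, adjusted P = 2.14e-07). In gai it had 92.4, 84.8 and 181 CPM, against 37.4, 31.9 and 26.1 CPM (log2 fold change 1.89 ± 0.32, adjusted P = 0.000103), and in ga4 116, 96.6 and 172 CPM, against 36.8, 43.4 and 22.05 CPM (log2 fold change 1.90 ± 0.32, adjusted P = 9.75e-05). The third salt library was the highest in all 4 genotypes. Without the third libraries the log2 fold changes were 2.66, 1.34, 1.41 and 2.63 in della5x, gai, ga4 and Ler, all still called. After 1 h it had 27.8, 153 and 38.8 CPM in della5x, against 22.3, 62.96 and 59.3 CPM (log2 fold change 0.61 ± 0.55, adjusted P = 0.538), and 30.2, 45.97 and 34.6 CPM in Ler, against 26.9, 20.6 and 19.2 CPM (log2 fold change 0.73 ± 0.56, adjusted P = 0.43).

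The salt response of Ler differed between the times for 9 of 22 members, where 18.5% of all genes tested were called (8.94% positive and 9.54% negative). The 8 h response minus the 1 h response was positive for EXLB1 (2.35 ± 0.34, adjusted P = 0.000634), EXPA1 (2.34 ± 0.48, adjusted P = 0.00454), EXPA8, EXPA14 and EXPA7. It was negative for EXLA1 (-0.92 ± 0.17, adjusted P = 0.00272), EXPA11 (-0.88 ± 0.18, adjusted P = 0.00478), EXLA2 and EXPA13. EXPA10 had the widest positive value, 3.70 ± 1.25, and did not pass (adjusted P = 0.0536), but passed without the second Ler salt library of 1 h (4.72, adjusted P = 0.0014), with DESeq2 (adjusted P = 0.0101) and with all libraries in one fit (adjusted P = 0.00864). In della5x no member passed, where 5.7% of all genes did, with 8 at an unadjusted P under 0.05, against 20.2% of all genes. With DESeq2 4 passed there, and without the second salt library of 1 h EXPA1 (2.28), EXPA11 (-1.72) and EXLB1 (3.58) did. No share of all genes is given here for these other fits, so the added calls cannot be read as particular to the members. Under mock conditions EXLA1 was lower at 8 h than at 1 h in della5x (log2 fold change -1.68 ± 0.26, adjusted P = 0.00904) and in Ler (log2 fold change -0.64 ± 0.13, adjusted P = 0.0398), where 2.1% and 0.577% of all genes were called, and the Ler call held in 2 of the 6 fits without 1 library.

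On salt for 8 h, 3 members differed between della5x and Ler, where 1.01% of all genes were called (0.462% higher and 0.545% lower in della5x). EXPA10 was lower in della5x than in Ler (log2 ratio -2.65 ± 0.29, adjusted P = 6.6e-06), with the per-library values given above, and the value stayed between -2.75 and -2.58 when each library was left out. EXPA11 was lower (-0.62 ± 0.14, adjusted P = 0.0282) and EXPA15 was higher in della5x (0.77 ± 0.18, adjusted P = 0.0299), without overlap of the groups. The EXPA11 call held in 1 of the 6 fits without 1 library (adjusted P 0.0498 to 0.124) and that of EXPA15 in 0 of the 6 (adjusted P 0.0531 to 0.179). Under mock conditions the log2 ratio of EXPA15 was not past the threshold (0.83 ± 0.20, adjusted P = 0.0985), and the difference of its responses was -0.06 ± 0.25.

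No member passed between della5x and Ler on salt at 1 h, or between gai or ga4 and Ler on salt at 8 h, where 0.164%, 1.01% and 0.884% of all genes were called. For EXPA10 the log2 ratios to Ler on salt were 0.24 ± 0.27 in gai (95% normal interval -0.28 to 0.76) and 0.39 ± 0.27 in ga4 (-0.13 to 0.91). For EXPA1 they were 0.12 ± 0.22 in della5x (-0.32 to 0.56), 0.09 ± 0.22 in gai (-0.35 to 0.53) and 0.35 ± 0.22 in ga4 (-0.09 to 0.79). All 5 intervals include 0. With the third libraries of 8 h left out, 2 members passed in gai, EXLB1 (-0.84, adjusted P = 0.00107) and EXPA11 (0.62, adjusted P = 0.00554), and 3 in ga4, EXLB1 (-0.57, adjusted P = 0.0222), EXLA1 (-0.99, adjusted P = 0.00503) and EXLA2 (-1.46, adjusted P = 0.0209). EXPA11 also passed in gai with DESeq2 and with only the compared groups fitted (adjusted P = 0.0237 and 0.0452). The shares of all genes called in these other fits are not given here, so the added calls cannot be read as particular to the members.

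The test of whether a mutant responded differently from Ler called no member in any of the 4 comparisons, where 0%, 0.0344%, 0% and 0% of all genes were called for della5x at 8 h, gai, ga4 and della5x at 1 h. At an unadjusted P under 0.05, 4 of 22 members stood out for della5x at 8 h, 1 for gai, 4 for ga4 and 4 of 23 for della5x at 1 h, where 4.72%, 5.27%, 5.04% and 4.11% of all genes did. The comparisons share the Ler libraries. For della5x at 8 h the members were EXPA10 (-2.96 ± 0.77, edgeR quasi-likelihood adjusted P = 0.764), EXPA1 (-0.79 ± 0.35), EXPA11 (-0.50 ± 0.20) and EXPB1 (0.74 ± 0.34). DESeq2 called EXPA10 there (-2.96, adjusted P = 0.034), and the share of all genes it called is not given here. For EXPA1 the log2 ratio of della5x to Ler on salt, given above, was positive and did not pass.

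The other mutants were set against the same Ler libraries. In ga4 the difference was -1.48 ± 0.65 for EXPA10, -0.95 ± 0.34 for EXPA1, 0.71 ± 0.25 for EXPA20 and -1.19 ± 0.44 for EXLB1, each at an unadjusted P under 0.05. In gai it was -1.20 ± 0.44 for EXLB1, the one member at that level, -1.23 ± 0.67 for EXPA10 and -0.51 ± 0.35 for EXPA1. On salt, the log2 ratios of EXPA10 and EXPA1 to Ler, given above, were positive in gai and ga4 and did not pass. The EXPA10 differences also rest on its very low mock level in Ler. Only with the third libraries left out did EXLB1 pass the adjusted threshold in gai (-1.29, adjusted P = 0.00757) and in ga4 (-1.22, adjusted P = 0.0376). For that setting the shares of all genes are not given here either. At 1 h the members for della5x were EXLA2 (-2.02 ± 0.65), EXLA1 (-1.24 ± 0.33), EXPA8 (1.18 ± 0.35) and EXPA14 (1.03 ± 0.41).

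**Figure D5:**
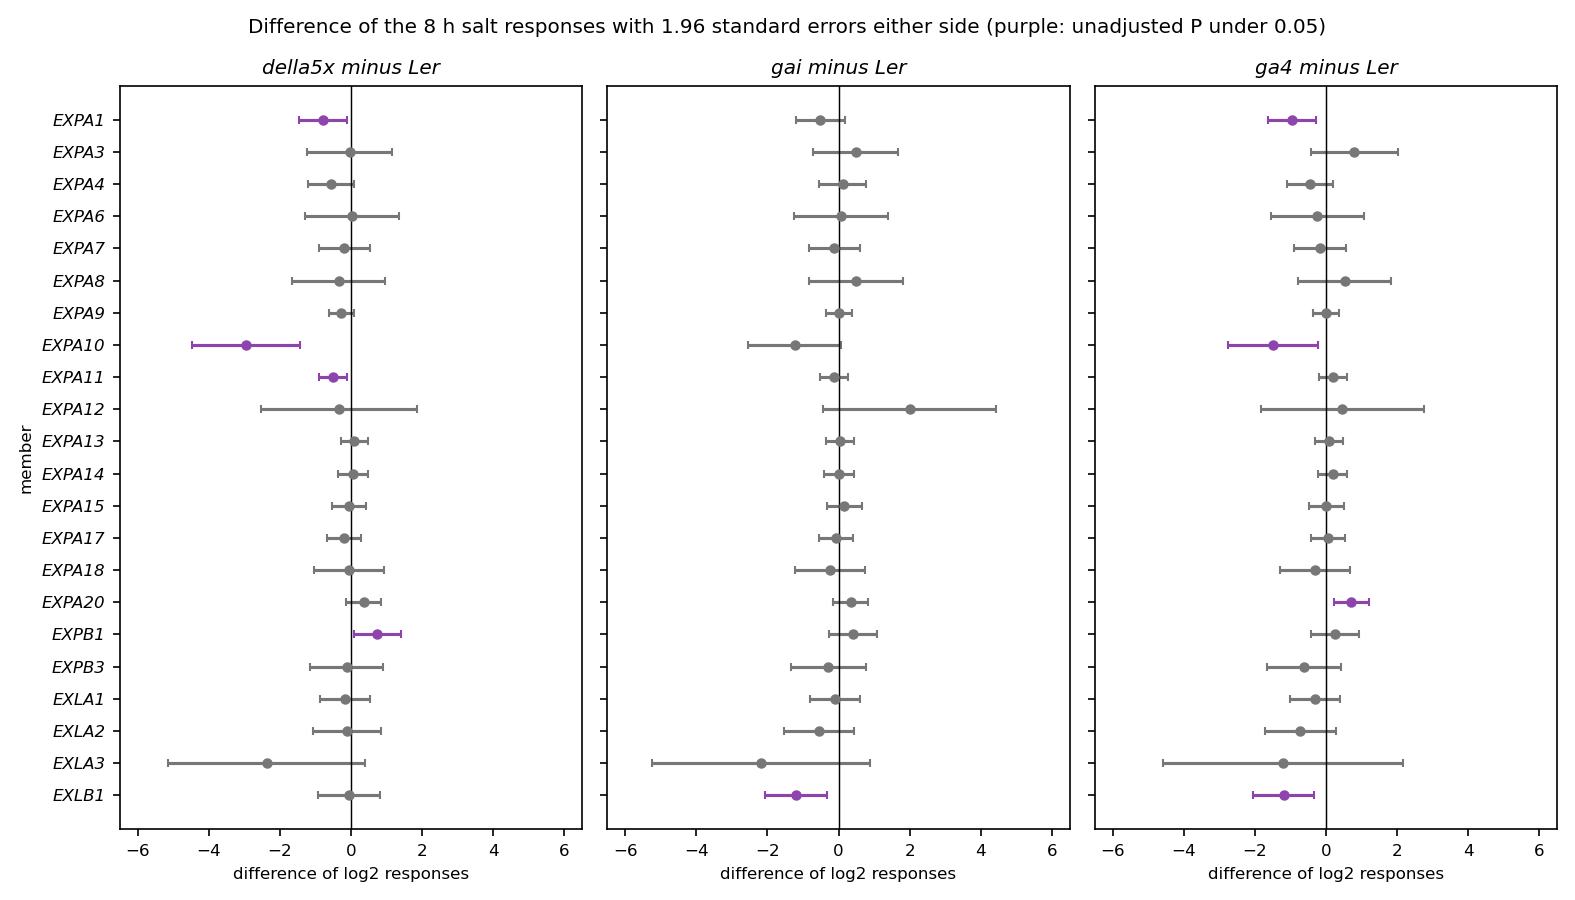
Difference of the log2 salt responses at 8 h, mutant minus Ler, for the 22 tested members, with bars for the 95% normal interval. Purple marks an unadjusted P under 0.05, and no member passed after adjustment. EXPA10 in della5x, at -2.96, lies farthest from 0.

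Under mock conditions no member was called between a mutant and Ler, with 7, 6, 6 and 7 of 21 members at an unadjusted P under 0.05 for della5x at 8 h, gai, ga4 and della5x at 1 h. Of all genes 0.484%, 0.789%, 1.31% and 0.165% were called, and 9.35%, 14.5%, 12.4% and 13% had an unadjusted P under 0.05. The smallest adjusted P values at 8 h were those of EXPA4 in ga4 (0.90 ± 0.21, adjusted P = 0.0519), EXPA1 in ga4 (1.28 ± 0.31, adjusted P = 0.0581), EXPA11 in gai (0.64 ± 0.15, adjusted P = 0.0612) and EXPA4 in della5x (0.94 ± 0.21, adjusted P = 0.0737). All 4 log2 ratios were positive, and DESeq2 called each of them. Without the first Ler mock library of 1 h, which deviates from the other two, EXPA11 (lower in della5x), EXPA1, EXPA4, EXPA6 and EXPA15 (higher) were called at 1 h. How many of all genes DESeq2 or this fit called is not given here, so the added calls cannot be read as particular to the members.

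The proton pumps and XTHs that act in the same wall were read beside the expansins. Of the 11 AHA pump genes 10 were tested, and in Ler 5 rose at 8 h, namely AHA1, AHA2, AHA3, AHA4 and AHA9, while 1 fell at 1 h, where 12.9% of all genes were called higher at 8 h and 5.37% lower at 1 h. AHA4 had 161, 135 and 174 CPM on salt for 8 h, against 43.2, 40.9 and 31.5 CPM under mock conditions (log2 fold change 2.02 ± 0.14, adjusted P = 2.4e-10). AHA2, the main root pump, had 4575, 3483 and 3699 CPM at 8 h, against 2074, 2512 and 2958 CPM (log2 fold change 0.63 ± 0.17, adjusted P = 0.00672), and at 1 h 1923, 2075 and 1493 CPM, against 3612, 2941 and 2264 CPM (log2 fold change -0.69 ± 0.20, adjusted P = 0.0383). Its direction thus differed between the times (difference 1.31 ± 0.26, adjusted P = 0.00354).

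Among the 33 XTH genes, more fell than rose at 1 h. In Ler 3 of 28 tested rose and 11 fell, where 8.54% of all genes were called higher and 5.37% lower, with a median log2 fold change of -0.74, against 0.71 for the expansins. XTH13 had 0.375, 0.999 and 0.373 CPM on salt, against 36.7, 7.57 and 6.34 CPM under mock conditions (log2 fold change -4.86 ± 0.79, adjusted P = 0.00165), and XTH12 had 1.38, 2.16 and 1.12 CPM, against 74.4, 13.1 and 13.2 CPM (log2 fold change -4.43 ± 0.72, adjusted P = 0.00168). XTH22 rose, with 38.1, 42.2 and 36.3 CPM, against 1.902, 1.31 and 0.98 CPM (log2 fold change 4.80 ± 0.86, adjusted P = 0.00301). At 8 h 9 of 29 rose and 7 fell, where 12.9% and 10.4% of all genes did, with a median of 0.53, against 0.86 for the expansins.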

How the data were processed

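RNA was sequenced from root tips with a NEBNext Ultra kit. The authors used fastp for trimming, Hisat2 for mapping to TAIR10 and HTSeq-Count for counting, and deposited raw counts per gene of 36 libraries, without normalisation. Versions, counting mode and strandedness are not given in the sources used here. Genes that overlap or share long identical runs may thus be miscounted. Tests were run in edgeR 4.0.16 under R 4.3.3 (TMM, filterByExpr with a minimum count of 10 and total of 15, quasi-likelihood test, 1 coefficient per group), with Benjamini-Hochberg adjustment across every tested gene. SE is the standard error of the log2 fold change. Salt responses, genotypes on salt and their differences were fitted over all libraries of a time point, genotypes under mock conditions over the mock libraries, and times over the libraries of a genotype. DESeq2 1.42.0, RLE size factors, no filter, other sets of libraries and each library left out were alternatives. The alternative without the third libraries of 8 h was chosen after seeing the data. The members, gene lists and tests were chosen with earlier results of these data known. Every listed member is accounted for. Library values, fold changes and tests are given for those called in at least 1 salt response, genotype comparison under mock conditions or response difference, and for EXPA1, EXPA4, EXPA9 and EXPA15. For several of the members called in some responses only, they are not given for every response. Outside the family, at most the 3 called genes of a list with the largest change were named, except AHA1 and AHA2, which were chosen after their values were seen. The total count was 16772984 to 23811804 per library. Counting intervals cover counting error only. Sequences and positions are from TAIR10.1 (RefSeq), whose nuclear chromosomes are those of TAIR10. The 36 pairs of libraries within groups differed by 4.45 to 87.2 times sampling noise, so none was a duplicate. The edgeR and DESeq2 tests were checked on simulated data for the Ler salt response of 8 h only. The simulation held no deviation shared between libraries and no response difference.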

Additional observations from a re-analysis of the deposited data

Results flagged for a closer look

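The salt response of Ler differed between 8 h and 1 h for 9 members by the edgeR quasi-likelihood test of the difference itself (8 h minus 1 h). EXLB1 had 2.35 ± 0.34 (adjusted P = 0.000634), EXLA1 -0.92 ± 0.17 (adjusted P = 0.00272), EXPA1 2.34 ± 0.48 (adjusted P = 0.00454) and EXPA11 -0.88 ± 0.18 (adjusted P = 0.00478). EXPA14 had 1.01 ± 0.27 (adjusted P = 0.0184), EXPA13 -0.50 ± 0.13 (adjusted P = 0.0134), EXPA8 1.30 ± 0.36 (adjusted P = 0.0233), EXLA2 -1.54 ± 0.43 (adjusted P = 0.0227) and EXPA7 0.66 ± 0.21 (adjusted P = 0.0403). The calls of EXLB1, EXLA1, EXPA1, EXPA11 and EXPA14 held in all 12 fits that left out 1 library, those of EXPA8, EXLA2, EXPA13 and EXPA7 in 9, 6, 5 and 3. With all libraries in one fit EXPA11, EXLA1, EXLA2, EXPA8, EXPA13 and EXPA7 lost the call (adjusted P = 0.146, 0.0889, 0.0746, 0.148, 0.0861 and 0.367), as did EXPA14 and EXPA8 without the third libraries of 8 h (0.0891 and 0.0945). EXPA13 also missed the fold threshold with RLE size factors, no filter and DESeq2, and of the 9 members EXLB1 and EXPA1 kept the call in all of these alternatives.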

How the results depend on the processing

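No paired analysis was run because the labels give no replicate numbers, and the numbers used here follow the order of the samples. A block by that order was not fitted. The third libraries of 8 h, which stood apart together, were left out instead. None of the named results reversed in direction, and values of other members were not checked for this. Of the alternative values of the named results, 387 kept their side of the thresholds, 28 lost a call and 3 gained one, and of those that leave out 1 library 482, 101 and 5 did. Over all members and comparisons, named or not, 78 calls were gained under other settings and 43 with 1 library left out. Counts of members called are given with the reported count in parentheses. The shares of all genes under each setting are not given, so a changed count cannot be read as particular to the members.

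With only the compared groups fitted, 3 (11) were called for salt in della5x at 1 h, and 2 (0), 1 (0) and 1 (0) for mock della5x at 8 h, mock gai and salt gai over Ler. Without the third libraries of 8 h, chosen after seeing the data, there were 14 (8) for salt in della5x and 14 (10) in Ler, 2 (0) for mock della5x, 2 (0) and 3 (0) for gai and ga4 over Ler on salt, 1 (0) each for the response differences of gai and ga4, and 0 (1) for Ler mock at 8 h over 1 h. DESeq2 gave 4, 2, 1 and 2 (0 each) under mock conditions for della5x at 1 h, della5x at 8 h, gai and ga4, 1 (0) each on salt for della5x at 1 h and gai, 1 (0) for the della5x response difference at 8 h, 4 (0) for della5x between times, and 3 (1) and 2 (1) for mock times in Ler and della5x. No filter gave 1, 1 and 2 (0 each) for mock della5x at 8 h, gai and ga4. All libraries in one fit gave 4 (9) and 3 (0) for the times in Ler and della5x, and 0 (1) and 3 (1) for their mock times. At unadjusted P under 0.05 it gave 1 (4), 0 (1) and 1 (4) for the response differences of della5x at 8 h, gai and ga4, where gai had 2 with DESeq2 and 4 without the third libraries.

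With each library left out, the salt responses ranged over 8 to 12 (Ler, 1 h), 4 to 10 (della5x, 1 h), 10 to 11 (Ler, 8 h), 8 to 10 (della5x, 8 h), 11 to 13 (gai) and 9 to 14 (ga4). Mock comparisons ranged over 0 to 5 (della5x, 1 h), 0 to 1 (della5x, 8 h), 0 to 0 (gai) and 0 to 1 (ga4), and salt comparisons over 0 to 1, 1 to 2, 0 to 1 and 0 to 2 in the same order. All 4 response differences stayed at 0 to 0, with 3 to 7, 2 to 5, 0 to 2 and 3 to 6 at unadjusted P. Times ranged over 5 to 10 (Ler) and 0 to 3 (della5x), and mock times over 0 to 2 in both.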

Other observations

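In the mutants the other wall genes gave the following counts at 8 h. Of 29 XTH genes tested, 8 rose and 8 fell on salt in della5x, 7 and 7 in gai and 7 and 7 in ga4, against 9 and 7 in Ler. Of all genes 13.7%, 10.6%, 10.7% and 12.9% rose and 9.03%, 8.35%, 9.01% and 10.4% fell in these responses. Of 10 AHA pump genes, 4 rose in della5x, 6 in gai and 3 in ga4, against 5 in Ler, and none fell. At 1 h 1 XTH gene rose and 10 fell in della5x, against 3 and 11 in Ler, where 6.62% and 8.54% of all genes rose and 3.52% and 5.37% fell. Photosynthesis genes used as shoot markers summed to 13.3 to 23.1 CPM in della5x on salt at 8 h, against 21.3 to 70.001 CPM under mock conditions, and to 21.8 to 40.3 CPM in Ler, against 102 to 165 CPM. In gai they were 44.04 to 71.6 CPM, against 212 to 282 CPM, and in ga4 34.01 to 62.8 CPM, against 74.7 to 210.2 CPM. At 1 h the sums were 80.4 to 154 CPM in della5x on salt, against 30.7 to 87.1 CPM under mock conditions, with overlap, and 220.0 to 282 CPM in Ler, against 104 to 210.5 CPM.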
